A study of Homo sapiens with 32 samples.

Results

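A set of 50 genes of the cell division cycle was followed in THP-1 cells, a human monocytic leukaemia line, that differ in ATP-citrate lyase (ACLY), the enzyme that makes cytosolic acetyl-CoA from citrate. The genes were chosen by name for their known roles, and a gene was kept where its mean over the 32 libraries was at least 10 normalized counts. All 50 were found, and 49 of them passed, out of 12406 genes that passed among the 60107 in the tables. The gene left out was CCND2 (cyclin D2), with a mean of 1.42, while the lowest mean among the genes kept was 89.8, for CCND1 (cyclin D1).

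The 7 genes of G1 cyclins and their kinases were CCND1, CCND2, CCND3, CDK4, CDK2, CCNE1 and CCNE2, and the 3 transcription factors were E2F1, MYBL2 and FOXM1. Origin licensing and the replicative helicase gave 9 genes (MCM2 to MCM7, CDC6, CDT1 and GINS2), and nucleotide supply and DNA synthesis gave 8 (RRM1, RRM2, TYMS, TK1, PCNA, FEN1, RFC4 and UHRF1). These 17 are called S phase genes below. The 23 mitotic genes were 9 kinases, cyclins and phosphatases (CDK1, CCNA2, CCNB1, CCNB2, CDC25B, CDC25C, PLK1, AURKA and AURKB) and 14 genes of the spindle, the kinetochore and mitotic exit (BUB1, BUB1B, TTK, CDC20, UBE2C, BIRC5, CENPE, CENPF, KIF11, KIF20A, NUSAP1, TPX2, MKI67 and TOP2A).

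The cells were of 4 lines: ACLY knockout cells (KO) and knockout cells that had received, by lentiviral transduction and puromycin selection, wild-type ACLY (WT), the catalytically inactive H760A mutant (HA) or the S455A mutant, which cannot be phosphorylated at serine 455 (SA). All 4 lines therefore carry the knockout of the endogenous gene, and a control transduction of the KO cells is not given in the sources used here. Each line was unstimulated or stimulated with 100 ng/ml lipopolysaccharide (LPS, a bacterial cell wall component) for 3 hours, with 4 libraries per group and 8 groups in all. The labels name 1 line per genotype, so other differences between lines cannot be told apart from the genotype, and p-values measure only the spread between these libraries, which may be technical. KO and HA are called inactive lines below, and WT and SA active lines.

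The cell cycle is driven by cyclin-dependent kinases. In G1, D and E cyclins with CDK4, CDK6 and CDK2 phosphorylate the retinoblastoma protein and free E2F factors, which switch on genes for origin licensing and DNA synthesis. Mitotic genes are switched on later by the MuvB complex with MYBL2 and FOXM1, and most of them carry a CHR element with upstream CCAAT boxes in the promoter. The inhibitor p21, encoded by CDKN1A, acts against these kinases and lets repressor complexes hold both classes of genes down.

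The promoters of 4 members are given here as examples, each from 250 bases before to 50 after the transcription start in RefSeq (GRCh38.p14). MCM2 and MCM6 are S phase genes, and CDK1 and TOP2A are mitotic genes. Capitals mark matches, on either strand, to E2F words (TTTCCCGC, TTTGGCGC, TTTCGCGC or TTTGCCGC), CHR words (TTTGAA or TTCGAA) and CCAAT.
MCM2, chr3:127598161-127598460, forward strand: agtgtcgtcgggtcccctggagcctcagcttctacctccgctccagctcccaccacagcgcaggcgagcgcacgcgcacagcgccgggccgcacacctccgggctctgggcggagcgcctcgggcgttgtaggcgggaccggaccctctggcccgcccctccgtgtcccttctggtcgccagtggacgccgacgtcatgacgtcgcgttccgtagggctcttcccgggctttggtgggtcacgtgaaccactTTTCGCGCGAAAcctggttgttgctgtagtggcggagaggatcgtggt
MCM6, chr2:135876394-135876693, reverse strand: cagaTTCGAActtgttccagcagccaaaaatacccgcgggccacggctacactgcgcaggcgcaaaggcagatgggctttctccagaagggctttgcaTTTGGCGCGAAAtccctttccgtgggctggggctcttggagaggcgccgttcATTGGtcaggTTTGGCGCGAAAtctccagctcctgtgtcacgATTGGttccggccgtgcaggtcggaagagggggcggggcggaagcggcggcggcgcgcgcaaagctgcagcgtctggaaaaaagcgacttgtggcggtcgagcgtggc
CDK1, chr10:60778081-60778380, forward strand: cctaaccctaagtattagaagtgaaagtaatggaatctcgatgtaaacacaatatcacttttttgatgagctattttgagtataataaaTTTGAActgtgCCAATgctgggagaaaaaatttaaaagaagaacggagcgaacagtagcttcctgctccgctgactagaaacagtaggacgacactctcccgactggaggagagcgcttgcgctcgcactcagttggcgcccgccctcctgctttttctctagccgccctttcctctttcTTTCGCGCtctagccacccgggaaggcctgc
TOP2A, chr17:40417847-40418146, reverse strand: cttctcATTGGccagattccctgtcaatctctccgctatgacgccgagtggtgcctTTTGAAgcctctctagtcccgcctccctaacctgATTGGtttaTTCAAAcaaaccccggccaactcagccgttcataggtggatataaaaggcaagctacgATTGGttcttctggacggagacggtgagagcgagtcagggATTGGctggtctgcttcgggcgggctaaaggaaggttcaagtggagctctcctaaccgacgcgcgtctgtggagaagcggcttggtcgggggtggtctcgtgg

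Promoters were found for 38 of the 50 members, and none for CCND1, CCND2, CDK2, CCNE2, FOXM1, MCM4, MCM5, AURKA, TTK, UBE2C, BIRC5 and TPX2. An E2F word was present in 10 of 15 S phase promoters (66.7%) and in 2 of 18 mitotic promoters (11.1%), against 3.31% of all 35116 promoters of this length. A CHR word was present in 11 of 18 mitotic promoters (61.1%) and in 2 of 15 S phase promoters (13.3%), against 16.4% of all promoters. CCAAT was present in 14 of 18 mitotic and 9 of 15 S phase promoters, or 77.8% and 60% against 34.6% of all. In MCM2 and MCM6 E2F words of opposite strands overlap by 4 bases, and each such stretch was counted as 2 matches. MCM6 was 1 of the 2 S phase promoters with a CHR word, and CDK1 was 1 of the 2 mitotic promoters with an E2F word. The printed promoters of these 2 genes thus hold all 3 kinds of word and do not show the usual difference between the classes. A match to letters is a description and shows no bound factor.

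QuantSeq 3′ mRNA-Seq reads the end of each transcript, and 6504099 to 14750815 reads per library fell on genes, with a median of 10247620. The values below are these reads divided by scaling factors computed over all 32 libraries and are called normalized counts. ACLY itself had 68.1 to 108 in the 4 unstimulated KO libraries and 92.0 to 119 in the WT libraries, so the groups overlapped. A 3′ tag does not check a change elsewhere in the gene. The vectors were built with the ACLY coding sequence, so tags at the end of the endogenous transcript may not read the added copy. These counts cannot be taken as a measure of re-expression. Of 10 monocyte genes all 10 were expressed in every library, among them PTPRC (CD45), which had 2326 to 4701 normalized counts. Among markers of other cells, CD3E was at 0 in every library, the means of EPCAM, HBB, MS4A1, ALB and COL1A1 were 0.0598, 0.0555, 0.229, 0.337 and 4.70, and PECAM1, which monocytes also express, had a mean of 3731. Monocyte genes did not move one way. Unstimulated, LYZ (lysozyme) rose by 1.89 on the log2 scale in KO against WT and by 1.62 in HA, and CD14, an LPS receptor, rose by 1.66 in KO. With LPS, LYZ rose by 2.29 in KO and 1.88 in HA, while CD33 fell by 0.73 in KO and ITGAM by 1.41 and CD14 by 1.37 in HA. PECAM1 rose by 0.88 in KO and 0.94 in HA unstimulated and by 0.83 in HA with LPS. All of these passed the limma limit given below, and their part in the results was not tested.

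Some libraries stood apart from the others of their group, and this touches the cell cycle genes directly. Over 9445 other genes with a mean of at least 50, a single principal component held 67.1% of the variance within groups. Its sign was set so that FEN1, a member, falls along it, so a member decided which end is called highest. The highest library was replicate 3 in WT and KO and replicate 1 in HA and SA, each with and without LPS. The number of genes detected was lowest in SA with LPS replicate 1, at 13460, which also had the highest score (0.56), and it reached 18552 in the other libraries. Scored without removing group means, the component averaged 0.1475 in unstimulated HA (-0.0154 to 0.2928), -0.0715 in WT (-0.1476 to 0.1429), -0.0177 in KO and 0.0112 in SA, so HA lay higher than WT on average and the groups overlapped. This score, with group means kept, was the covariate used below, so those fits also take up part of the differences between lines. The cause of this component was not tested, and results are given below with all libraries and, where the call changes, without the highest library of each group.

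The S phase genes were divided by this component. FEN1, which trims Okazaki fragments, and MCM2 had correlations of -0.99 with it over the deviations of the 32 libraries from their group means, RRM1 one of -0.96 and MCM6 one of -0.91. MCM4 and MCM5, which sit beside MCM2 and MCM6 in the same helicase ring, had correlations of 0.96 each, and CDT1 one of 0.91. In WT cells FEN1 had 2642, 2582, 833 and 2406 normalized counts. In the same libraries MCM5 had 1751, 1733, 2793 and 2114. Replicate 3 was thus the lowest for FEN1 and the highest for MCM5. In SA cells with LPS, MCM2 had 115, 1599, 1533 and 1804 and MCM5 6735, 1696, 2004 and 2143, so that replicate 1 was lowest for one helicase subunit and highest for another. These correlations are descriptions over libraries that share the component, and among the other genes the median size of the correlation was 0.69, with 36.2% of genes at or beyond 0.8.

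**Figure D1:**
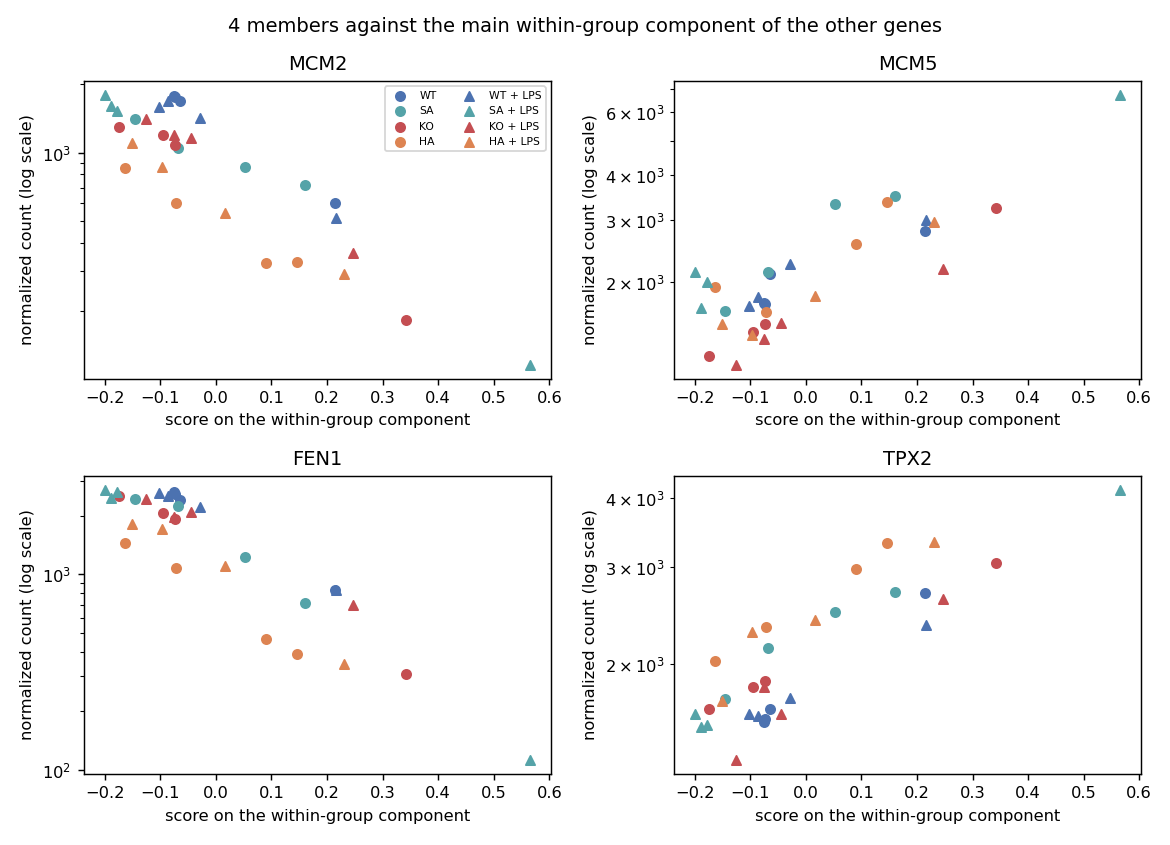
Normalized counts of MCM2, MCM5, FEN1 and TPX2 (log axis) against the score of each of the 32 libraries on the main within-group component of the other genes. Circles are unstimulated and triangles LPS libraries, coloured by line. MCM2 and FEN1 fall and MCM5 and TPX2 climb along the score, with SA + LPS replicate 1 farthest to the right at a score of 0.56.

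Mitotic genes fell on both sides as well. TPX2, a spindle assembly factor, had a correlation of 0.98, and TOP2A (topoisomerase II alpha) one of 0.82, whereas CDK1 had one of -0.96, CCNB2 one of -0.90 and BIRC5 (survivin) one of -0.89. Of the 49 members, 10 were at or below -0.8 and 10 at or above 0.8. The transcripts of the 10 members with the lowest correlations had a median GC content of 46.7%, with a range of 35.4% to 57.4%, and those of the 10 with the highest a median of 58.1%, with a range of 38.9% to 64.3%, so the ranges overlapped. Over the 12297 tested genes with a canonical GENCODE transcript the median GC content was 48.1%. Across all 49 members the Spearman correlation between GC content and the correlation with the component was 0.23. For the last 300 bases, nearest the end that is read, it was 0.14.

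Members varied over a wide range between libraries of the same group. The pooled within-group SD on the log2 scale had a median of 0.30 over the 49 members, against 0.35 over 9494 genes with a mean of at least 50, and 16 members lay above that median. CDC6, which loads the helicase on origins, was the steadiest, with an SD of 0.14 and a range over all libraries of 534 to 866. FEN1 and MCM2 were the least steady, with SDs of 1.21 and 1.06 and ranges of 112 to 2713 and 115 to 1804. Together the members took a mean of 0.891% of reads in WT, 0.889% in KO, 0.934% in HA and 0.977% in SA without LPS. The lowest and highest libraries of these groups had 0.854% and 0.964% in WT, 0.843% and 0.999% in KO, 0.781% and 1.01% in HA, and 0.9498% and 1.01% in SA, so every pair of groups overlapped.

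**Figure D2:**
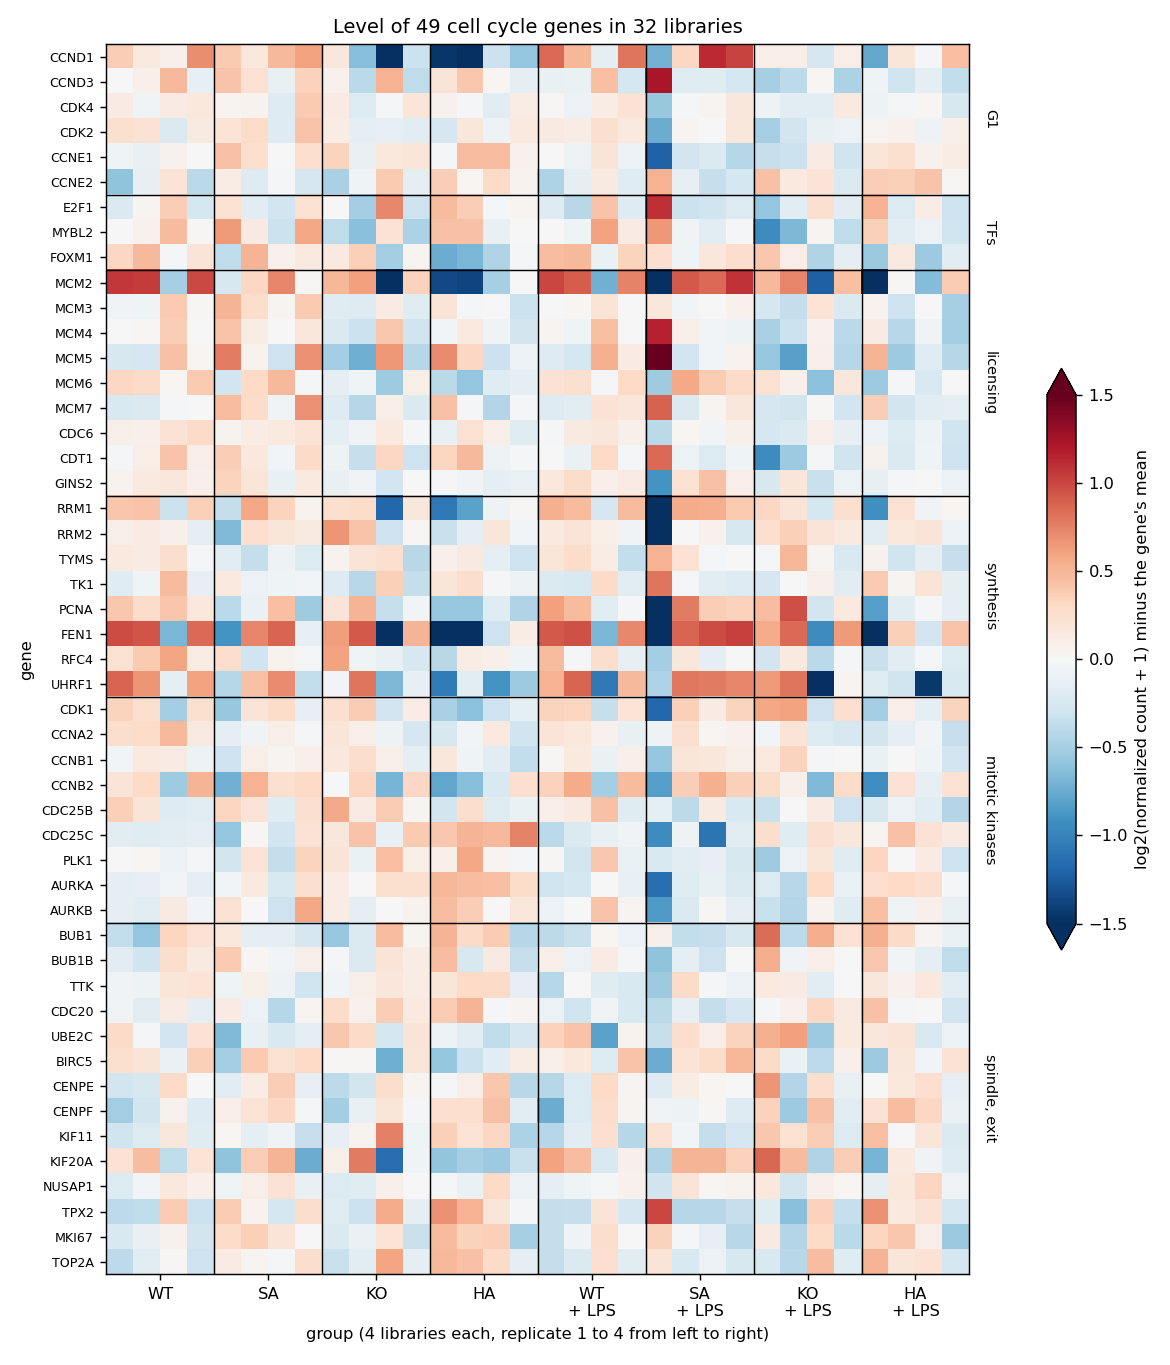
Level of the 49 members (rows, grouped by role) in the 32 libraries (columns, 4 per group), as log2(normalized count + 1) minus the mean of each gene, with the colour scale ending at 1.5 in either direction. Blue and red columns within a group mark single libraries, above all SA + LPS replicate 1 and KO replicate 3, in MCM2, FEN1 and RRM1 against MCM5, TPX2 and E2F1.

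The first question was whether lines with and without active ACLY differ in their cell cycle transcripts. With limma and an adjusted p (Benjamini-Hochberg over all 12406 genes) below 0.01 as the limit, 1 of 49 members changed between the inactive and the active unstimulated lines, a share of 2.04% against 5.93% of all genes tested. The member was CCND1, which fell. At an unadjusted p below 0.05 the count was 8 of 49 members, or 16.3% against 23.5% of all genes. With LPS no member passed, against 6.43% of genes, and 11 had an unadjusted p below 0.05, or 22.4% against 23.97%.

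Cyclin D1 couples growth signals to CDK4 and CDK6 and lies on chromosome 11 at 69641156 to 69654474 (GRCh38, GENCODE release 44). It had 105, 90.0, 85.2 and 132 normalized counts in WT and 107, 90.5, 113 and 123 in SA. It had 91.0, 51.5, 21.9 and 64.4 in KO and 28.9, 26.7, 64.6 and 53.7 in HA. Every HA library lay below every active library, and KO replicate 1 overlapped with the active lines. The log2 difference of inactive from active lines was -1.19 (SE 0.27, 95% interval -1.74 to -0.64, adjusted p = 0.0033, limma), which is a level 0.44 times that of the active lines. The difference was -1.30 for HA against WT (SE 0.38, adjusted p = 0.036) and -0.98 for KO against WT (SE 0.38, adjusted p = 0.18), and neither passed alone. CCND1 also moved with the component described above (correlation -0.81). Without the highest library of each group the difference of inactive from active lines was -0.95 (SE 0.19, adjusted p = 0.00092). Leaving out HA replicate 2 alone gave -1.09 and an adjusted p of 0.0104 (limma), just above the limit.

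With LPS, CCND1 had 147, 115, 73.7 and 142 in WT, 49.3, 100.3, 177 and 165 in SA, 86.6, 86.8, 67.7 and 86.6 in KO, and 47.1, 91.8, 79.3 and 111 in HA. The groups overlapped, and the log2 difference of inactive from active lines was -0.49 (SE 0.27, adjusted p = 0.28). CCND3 (cyclin D3) had a mean of 1623 ± 315 (SD, n = 4) in WT, 1491 ± 477 in KO, 1637 ± 264 in HA and 1759 ± 271 in SA, with a log2 difference of inactive from active lines of -0.13 (SE 0.18, adjusted p = 0.70). CCND2 was near 0 in all groups, with the highest library at 6.94. CDK4, CDK2, CCNE1 and CCNE2 did not pass in this comparison.

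The inhibitor that binds these cyclin and kinase pairs moved the other way. CDKN1A (p21), on chromosome 6 at 36676460 to 36687337, had 163, 206, 292 and 234 normalized counts in WT and 350.2, 325, 217 and 284 in SA. It had 669.7, 568, 662 and 497 in KO and 649.6, 528, 311 and 393 in HA. All KO libraries lay above all WT and SA libraries, all HA libraries lay above all WT libraries, and HA replicate 3 overlapped with SA. CDKN1A rose by 1.44 on the log2 scale in KO against WT (SE 0.21, adjusted p = 2.39e-05, limma), by 1.04 in HA against WT (SE 0.21, adjusted p = 0.0020) and by 1.04 in inactive against active lines (SE 0.15, adjusted p = 8.9e-06). With LPS it rose by 0.86 in KO (adjusted p = 0.0090), a call kept in 1 of 8 fits that left out a library, and by 0.69 in inactive against active lines (adjusted p = 0.0018), and the difference for HA was 0.72 (adjusted p = 0.044). The unstimulated HA call was kept in 5 of 8 such fits and the unstimulated KO call in 8 of 8. The KO and HA comparisons share the WT libraries, and those of inactive and active lines reuse all of them, so they are not independent.

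Of the other CDK inhibitors and pocket proteins, 8 of 10 listed genes passed the count filter, and CDKN1A was the member of that list that changed. In inactive against active unstimulated lines that is 12.5% of the tested genes, against 5.93% of all genes. CDKN1B (p27) had a log2 difference of -0.06 between inactive and active unstimulated lines (adjusted p = 0.91). Of 15 p53 target genes tested, CDKN1A not among them, FDXR (ferredoxin reductase) rose by 0.90 in inactive against active unstimulated lines (SE 0.21, adjusted p = 0.0041). That is 6.67% of the list against 5.93% of all genes, and 20% against 23.5% had an unadjusted p below 0.05. Positive differences were found in 11 of 15, while the median over all genes was -0.03. FDXR had 101.05, 93.9, 82.5 and 82.3 normalized counts in HA, against 36.3, 35.7, 60.2 and 25.7 in WT, and 50.7, 37.6, 85.0 and 41.0 in KO, so HA was separate from WT and KO was not. The FDXR call was kept in 12 of 16 fits that left out a library. Of 19 other G1 and S phase regulators none changed in the inactive against active unstimulated lines and 4 had an unadjusted p below 0.05. The latter is 21.1% of the list against 23.5% of all genes. MYC, in that list, had 9.28, 13.0, 29.9 and 28.6 in HA against 52.3, 72.2, 36.4 and 115 in WT, a log2 difference of -1.75 (SE 0.61, adjusted p = 0.081). CDK6 had a difference of -0.25 (adjusted p = 0.15).

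**Figure D3:**
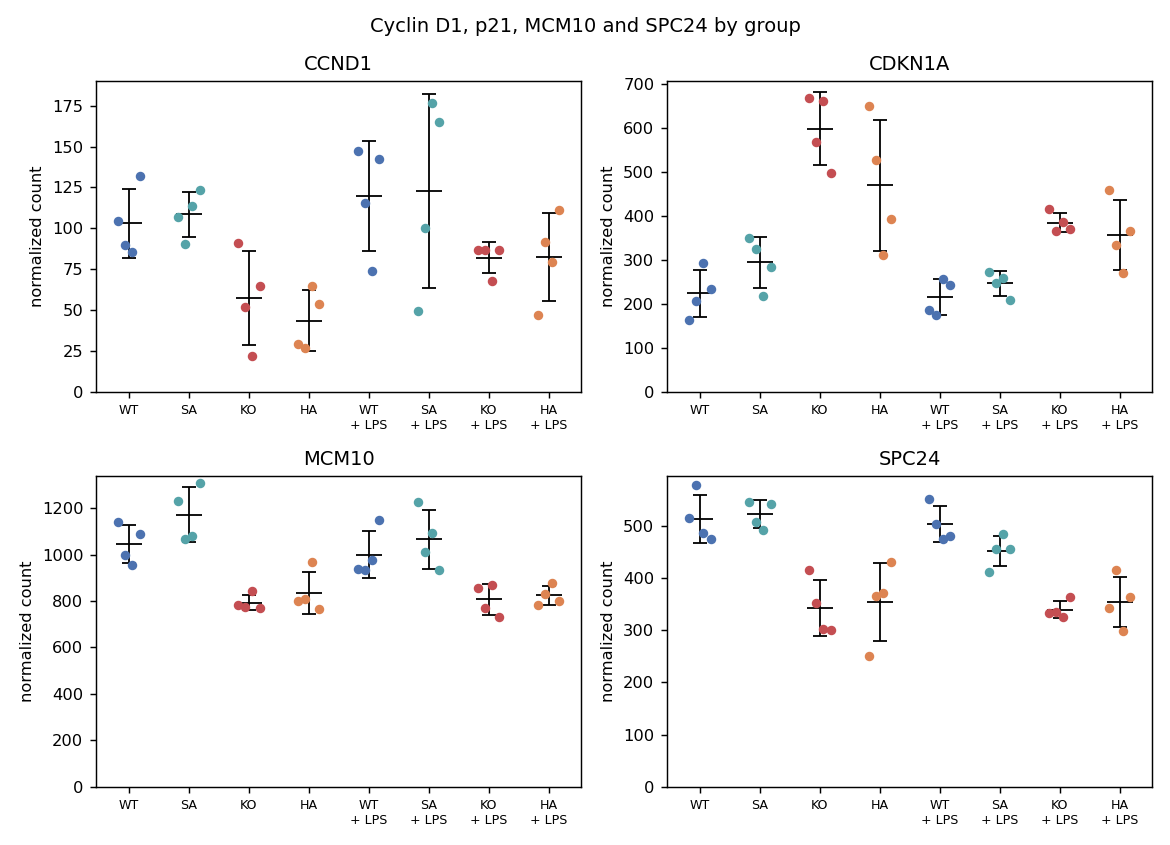
Normalized counts of CCND1, CDKN1A, MCM10 and SPC24 in the 8 groups. Points are libraries, and lines are the mean and SD of 4. CCND1, MCM10 and SPC24 lie lower and CDKN1A higher in the unstimulated KO and HA libraries than in the WT libraries, except for 1 KO library of CCND1 (91.0) and 1 HA library of MCM10 (966) inside the WT range.

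E2F1 drives S phase genes, and MYBL2 and FOXM1 drive mitotic genes. E2F1 had 668, 802, 1002 and 644 in WT, 774, 543, 1281 and 626 in KO, and 1079, 1007, 761 and 800.3 in HA, and the groups overlapped. FOXM1 had 494, 556, 389.6 and 454 in WT and 238, 248, 291 and 389.9 in HA, with a log2 difference of -0.71 (SE 0.22, adjusted p = 0.044). MYBL2 had 2953, 3075, 4071 and 2984 in WT and 2251, 1902, 3426 and 2119.6 in KO, a difference of -0.46 (SE 0.24, adjusted p = 0.40). In both genes the libraries overlapped, in FOXM1 barely, with HA replicate 4 just above WT replicate 3.

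All 9 licensing and helicase genes had negative differences between the inactive and the active lines, both unstimulated and with LPS, and none passed the limit. The median log2 difference was -0.22 unstimulated and -0.30 with LPS, against -0.03 and 0.01 over all genes. MCM6 had 1164, 1144, 959 and 1229 normalized counts in WT, 849, 893, 648 and 991 in KO, 704, 626, 824 and 850.4 in HA, and 766, 1148, 1313 and 916 in SA. HA lay below WT in every library, and the log2 difference was -0.59 for HA (SE 0.21, adjusted p = 0.087) and -0.43 for inactive against active lines (SE 0.15, adjusted p = 0.058). MCM2 had 1772, 1755, 599 and 1684 in WT, 1199, 1298, 182 and 1077 in KO, and 330.0, 325, 600.4 and 853 in HA. Its differences were the widest of this role, -0.84 in KO (SE 0.69) and -1.46 in HA (SE 0.69), and replicate 3 of WT and KO and replicates 1 and 2 of HA were the low libraries. Leaving out 1 library moved the KO value to between -1.22 and -0.16. With the component as a covariate the values were -0.56 in KO (adjusted p = 0.00069) and -0.34 in HA (adjusted p = 0.062), by limma. That covariate kept the group means of the component, so it also takes up part of the difference between lines. MCM5 had a difference of 0.16 in HA, the largest positive one of the role, and MCM7 the smallest negative one in KO, -0.07. With the component as a covariate MCM5 in HA was at -0.40 (adjusted p = 0.020) and MCM4 at -0.47 (adjusted p = 0.00022), by limma. That fit also called MCM2, MCM3, MCM4, MCM5, MCM6, MCM7 and CDT1 as lower in inactive than in active unstimulated lines. It called 22.4% of members there, against 12.7% of all genes.

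Among the 8 genes of nucleotide supply and DNA synthesis 6 had negative differences between inactive and active lines, unstimulated and with LPS, and none passed. In SA against WT unstimulated all 8 were negative as well, with a median of -0.33, against -0.22 for inactive against active lines. FEN1 had 2642, 2582, 833 and 2406 in WT, 2070.2, 2528, 308 and 1913 in KO, and 393, 467, 1075 and 1439.7 in HA. The log2 difference was -1.40 in HA (SE 0.80, adjusted p = 0.28) and -0.54 in KO. With the component as a covariate these were -0.10 and -0.22. PCNA, the sliding clamp, had 679, 622, 684 and 569.8 in WT and 344, 344, 449.7 and 373 in HA, so that HA was below WT in every library, with a difference of -0.76 (SE 0.35, adjusted p = 0.18). In KO it had 585, 730.0, 404 and 499, which overlapped with WT. RRM2, a subunit of ribonucleotide reductase, had the highest difference of this role in KO, 0.17, and TK1 (thymidine kinase) in HA, 0.06.

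Most S phase genes had negative differences in the inactive lines, and most mitotic genes did not. In KO against WT 16 of 17 S phase genes had negative differences unstimulated and 14 of 17 with LPS, with medians of -0.23 and -0.21. In HA against WT the counts were 13 and 16 of 17, with medians of -0.18 and -0.26. Over all genes tested the medians lay between -0.03 and -0.01, and 46.3% to 49.03% of genes had positive differences. Mitotic genes had medians of 0.05 and 0.08 in KO and 0.10 and 0.11 in HA, and 17, 15, 15 and 14 of 23 had positive differences. On the deposited scale the median of all genes moved to -0.13 and -0.11 in KO and to 0.12 and 0.13 in HA. The mitotic medians in KO turned to -0.04 and -0.02 there, with 13 of 23 genes lower in each. The S phase medians in KO were -0.33 and -0.31 on that scale. In HA they shrank to -0.04 and -0.10, with 11 and 14 of 17 S phase genes lower. No member passed in these comparisons, against 2.9% of genes in KO and 2.52% in HA unstimulated and 3.47% and 2.02% with LPS. At an unadjusted p below 0.05 there were 2 and 13 members unstimulated and 3 and 6 with LPS, in the same order. These are 4.08%, 26.5%, 6.12% and 12.2% of members against 14.27%, 24.54%, 17.23% and 16.7% of all genes, so the shares lay below or near those of genes at large.

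The mean level of the 17 S phase genes was 10.30 ± 0.05 on the log2 scale (SD, n = 4) in WT, with libraries from 10.22 to 10.33. It was 10.20 ± 0.09 in SA, 10.02 ± 0.18 in KO and 9.88 ± 0.07 in HA, with libraries of HA from 9.78 to 9.94. All KO and HA libraries lay below the lowest WT library, HA lay below SA as well, and KO overlapped with SA, whose lowest library was at 10.08. These levels are a description and were not tested. The mean takes in genes that followed the component, on which HA lay higher than WT on average. In HA against WT, MCM2 and FEN1 differed by -1.46 and -1.40, while the median S phase gene differed by -0.18. With the component as a covariate MCM2 and FEN1 differed by -0.34 and -0.10. In that fit 16 of 17 S phase genes were lower in HA, with a median of -0.27. The mean level of the 23 mitotic genes was 10.002 ± 0.045 in WT, 10.03 ± 0.09 in SA, 10.06 ± 0.03 in KO and 10.07 ± 0.11 in HA, and these groups overlapped. With LPS the S phase level was 10.24 ± 0.12 in WT, 10.15 ± 0.36 in SA, 10.04 ± 0.17 in KO and 9.90 ± 0.08 in HA, and SA replicate 1 was the lowest library of all at 9.61. These are sums over bulk RNA, in which fewer cells in a phase and less RNA per cell cannot be told apart.

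**Figure D4:**
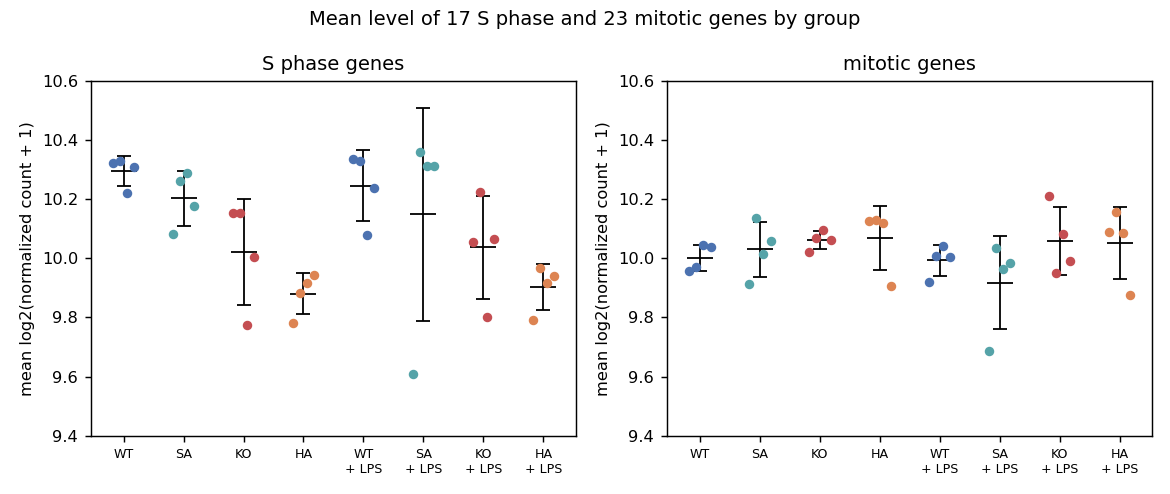
Mean log2(normalized count + 1) of the 17 S phase genes (left) and the 23 mitotic genes (right) in each library, by group. Points are libraries and lines the mean and SD of 4, on an axis that does not start at 0. Unstimulated KO and HA lie below WT for S phase genes, while the mitotic levels of WT and the other groups overlap, and SA + LPS replicate 1 is lowest in both. The S phase mean takes in genes that followed the within-group component, MCM2 and FEN1 among them.

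A longer list of 57 other S phase genes also had mostly negative differences. In KO 49 of 57 and in HA 41 of 57 had negative differences unstimulated, with medians of -0.19 and -0.17, and with LPS the counts were 42 and 47. In SA against WT they were 26 and 25 of 57. On the deposited scale HA was close to even, with 30 and 32 of 57 lower and medians of -0.02 and -0.03, whereas KO had 54 and 47 lower. In the inactive against active lines MCM10 and GINS4 fell, unstimulated and with LPS, which is 3.51% of the list against 5.93% and 6.43% of all genes. MCM10, which activates the helicase at origins (chromosome 10, 13161558 to 13211110), had 1138, 998, 956 and 1088 in WT, 1231, 1067, 1080.3 and 1308 in SA, 784, 775, 842 and 769 in KO, and 798, 811, 966 and 765 in HA. HA replicate 3 overlapped with WT, and the other inactive libraries lay below all active ones. The log2 difference was -0.44 unstimulated (SE 0.08, adjusted p = 0.00015) and -0.34 with LPS (SE 0.08, adjusted p = 0.0030), and with LPS all 8 inactive libraries lay below all 8 active ones. GINS4, a subunit of the helicase complex, had differences of -0.60 (adjusted p = 0.0046) and -0.64 (adjusted p = 0.0026), by limma. The GINS4 call was kept in 11 of 16 fits that left out a library unstimulated and in 16 of 16 with LPS. The MCM10 call was kept in 16 of 16 and 15 of 16 such fits, and in 11 of 11 and 8 of 11 other alternatives.

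Among the mitotic members, the phosphatase CDC25C, which activates CDK1, and the kinase AURKA, which acts on centrosomes, had higher levels in the inactive lines without passing the limit. CDC25C had 112, 109.5, 111 and 113 in WT, 140.4, 167, 115 and 164 in KO, 165, 178, 175 and 209 in HA, and 83.1, 126, 102 and 144 in SA. All KO and HA libraries lay above all WT libraries, and HA lay above SA as well, while KO overlapped with SA. The log2 difference of inactive from active lines was 0.54 (SE 0.14, adjusted p = 0.013) and with LPS 0.55 (SE 0.14, adjusted p = 0.011), both above the limit of 0.01. AURKA had 1907, 1921, 2031 and 1893 in WT and 2950.0, 2879, 2865 and 2535 in HA, which did not overlap, with a difference of 0.53 (SE 0.17, adjusted p = 0.050). In KO it had 2257, 2097, 2477 and 2462, all above WT as well, with a difference of 0.26 (SE 0.17).

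MKI67, TOP2A, CCNB1 and CDK1, often read as markers of proliferating cells, did not pass between the lines. MKI67 (Ki-67) had 3686, 4014, 4522 and 3569 in WT, 3722, 4043, 5004 and 3443 in KO, 6033, 5519, 5534 and 3063 in HA, and 5241, 5551, 4965 and 4351 in SA. The groups overlapped, and the difference of inactive from active lines was -0.0045 with a 95% interval of -0.32 to 0.31. TOP2A had 12159, 14225, 16135 and 12865 in WT and 22275, 21559.6, 19491 and 14342 in HA, a difference of 0.48 (SE 0.20, adjusted p = 0.15), and in KO a single library, replicate 3 at 23926, lay far above the others. CCNB1 had 768, 876, 859 and 751 in WT and 889, 753, 701 and 608 in HA. CDK1 had 1434, 1343, 795 and 1343 in WT, 1346, 1477, 932 and 1228 in KO, and 810.5, 739, 919 and 1036 in HA, with a difference in HA of -0.46 (SE 0.28, adjusted p = 0.30).

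Per role, the largest negative differences among spindle genes were those of BIRC5 in KO (-0.30) and KIF20A in HA (-0.61), and the largest positive ones those of KIF11 in KO (0.29) and TPX2 in HA (0.52). Among mitotic kinases and cyclins the lowest were CCNA2 in KO (-0.31) and CCNB2 in HA (-0.46). Of 70 other mitotic genes, SPC24 and CENPK fell in the inactive against active unstimulated lines, or 2.86% of the list against 5.93% of all genes. The CENPK call was kept in 5 of 16 fits that left out a library and 7 of 11 other alternatives. SPC24, a subunit of the NDC80 kinetochore complex, had 514, 578, 486 and 474 in WT, 415, 351, 302 and 300.4 in KO, 249.5, 364, 371 and 430.1 in HA, and 546, 507, 492 and 542 in SA. All inactive libraries lay below all active ones, with a log2 difference of -0.59 (SE 0.10, adjusted p = 8.87e-05), and SPC24 also fell in KO against WT, by 0.59 on the log2 scale (adjusted p = 0.0070), a call kept in 1 of 8 fits that left out a library. Over the 70 genes 43 had negative differences in this comparison, with a median of -0.06.

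**Figure D5:**
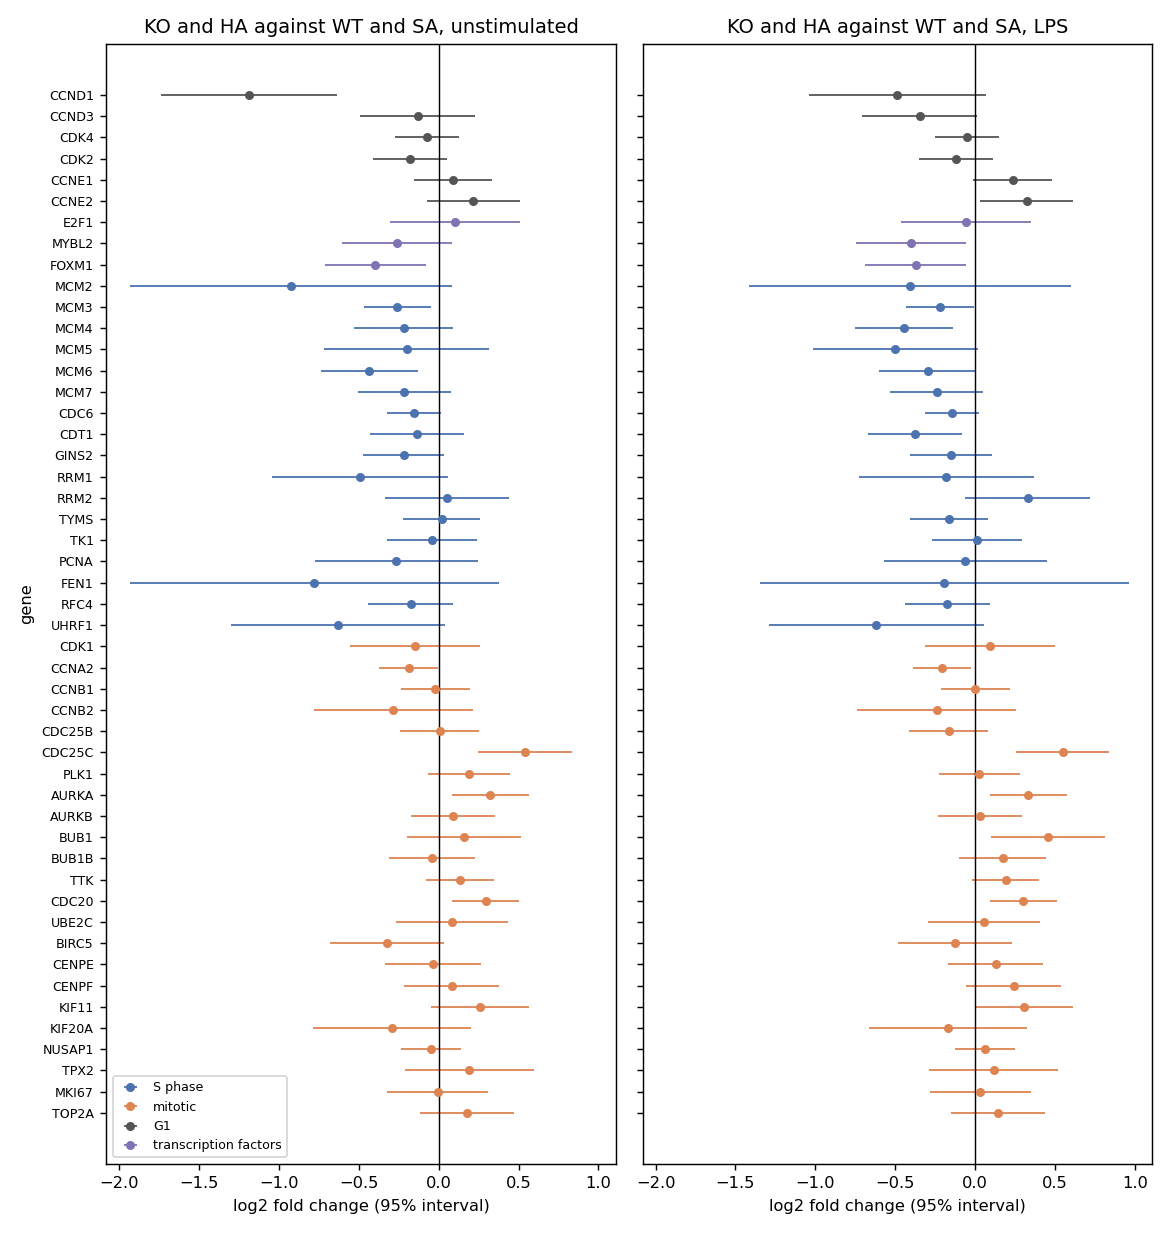
Log2 fold change of the 49 members in KO and HA against WT and SA, unstimulated (left) and with LPS (right). Points are limma estimates and bars 95% intervals, coloured by phase. Most S phase genes lie left of 0 and mitotic genes on both sides (on the deposited scale 14 and 12 of 23 mitotic genes lie left of 0), and the interval of CCND1 (-1.74 to -0.64) on the left panel lies farthest from 0.

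No member passed the limit for the effect of 3 hours of LPS in any line, by limma. The shares of all genes called were 0.25% in WT, 0.572% in KO, 0.403% in HA and 0.492% in SA. At an unadjusted p below 0.05 there were 0, 2, 1 and 4 members. These are 0%, 4.08%, 2.04% and 8.16% of members against 1.61%, 5.43%, 4.77% and 9.85% of all genes. In the mean of the 4 lines none passed, against 1.78% of genes, and 7 had an unadjusted p below 0.05. The latter is 14.3% of members against 10.4% of all genes. CCNE1 (cyclin E1) came closest, with a log2 difference of -0.30 (SE 0.08, adjusted p = 0.055). It had 518, 454, 380.1 and 455 in SA and 164, 313, 329 and 284 in SA with LPS, which did not overlap, a difference of -0.77 (SE 0.17, adjusted p = 0.017). In WT it had 366, 354, 399.8 and 381 without and 381, 361, 436 and 358 with LPS. For the difference of the LPS responses of KO, HA and SA from that of WT no member passed (0.00806%, 0% and 0% of genes). At an unadjusted p below 0.05 there were 0, 0 and 2 members, or 0%, 0% and 4.08% against 1.411%, 1.145% and 3.684% of all genes.

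No member passed between SA and WT, unstimulated or with LPS, by limma, and 0% of all genes did in both. There were 2 members with an unadjusted p below 0.05 unstimulated and 3 with LPS. These are 4.08% and 6.12% of members against 3.59% and 5.21% of all genes. CCNA2 (cyclin A2) had 1137, 1149.7, 1329 and 1040.2 in WT and 857, 909.9, 1003 and 928 in SA, which did not overlap, with a log2 difference of -0.33 (95% interval -0.59 to -0.07, adjusted p = 0.998). MCM7 had a difference of 0.46 (95% interval 0.05 to 0.87). The S phase median was -0.06 unstimulated, with 11 of 17 genes lower, and -0.01 with LPS, with 10 of 17 lower. On the deposited scale both medians were positive, 0.20 and 0.26, as were those over all genes, 0.24 and 0.25.

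More members passed without the library of each group that was highest on the component, a choice made after the values were seen. FEN1, a member, had set the sign of the component and so which end was left out. The calls of FEN1 and of genes that follow it are thus not independent of this choice. In unstimulated HA replicate 1 (score 0.145) was left out, while replicate 4 (-0.163) lay farther from the group mean. Without the highest libraries, 10 of 49 members passed in HA against WT unstimulated. That is 20.4% of members against 17.6% of all genes, so the members' share lay near the background. MCM2, MCM6, FEN1, RRM1, UHRF1, FOXM1, CCND1 and CDK1 fell and AURKA and TPX2 rose. MCM2 fell by 1.66 on the log2 scale (SE 0.25, adjusted p = 4.5e-05) and RRM1 by 0.69 (SE 0.15, adjusted p = 0.0018). None of these 10 passed with all libraries and the component as a covariate. The differences there were -0.34 for MCM2, -0.12 for RRM1, -0.10 for FEN1, -0.03 for CDK1 and 0.08 for TPX2. For AURKA and CCND1 they were 0.57 (adjusted p = 0.016) and -0.83 (adjusted p = 0.029), by limma. For UHRF1, FOXM1 and MCM6 they were -0.63, -0.52 and -0.29. In inactive against active unstimulated lines MCM2, MCM6 and CCND1 passed, 6.12% of members against 11.1% of genes, and with LPS MCM2 and MCM4, 4.08% against 11.2%. HA with LPS gave UHRF1 (4.72% of genes), KO none unstimulated (4.96%) and MYBL2 with LPS (7% of genes), and the mean LPS effect gave CCNE1 (3.35%).

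Libraries of WT and KO with the same replicate number deviated together. With that number as a block, in a fit of only the groups compared, limma called 4 of 49 members in KO against WT with LPS. That is 8.16% against 10.7% of all genes, and none was called unstimulated (5.83%). The 4 were MYBL2 (-0.65, SE 0.10, adjusted p = 0.00042), MCM5 (-0.48, SE 0.09, adjusted p = 0.0016), MCM4 (-0.39, SE 0.09, adjusted p = 0.0063) and CDT1 (-0.50, SE 0.12, adjusted p = 0.0093), all lower in KO. MYBL2 had 2959, 2801, 4449 and 3204 in WT with LPS and 1526, 1836, 3034 and 2261 in KO with LPS, lower in KO in each of the 4 numbers. MCM5 had 1812, 1718, 2982 and 2243 against 1389, 1170.0, 2184 and 1532, again lower in each number. In both genes replicate 3 was the highest library of its group. With the block in a fit of all 32 libraries no member was called in KO against WT, unstimulated or with LPS.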

How the data were processed

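RNA of 32 THP-1 libraries was read with QuantSeq 3′ mRNA-Seq. Trimming by the authors used Bbduk, alignment STAR on GRCh38, and counting HTSeq-count (versions not given in the sources used here), and they deposited normalized counts per line and treatment. In every library 100.000% of values above 0 were whole multiples of 1 number (tolerance 0.05 reads), and the factors had been set for each line apart, so the recovered reads were rescaled with median-of-ratios factors over all 32 libraries. Spike-in rows (92) were left out. Genes with a mean of at least 10 entered a limma analysis (version 3.58.1, R 4.3.3) of log2-transformed values after adding 1, in a single fit of 8 group means with a trend, with Benjamini-Hochberg adjustment and a limit of 0.01. Fold changes on this scale understate changes of low genes. The fit was tested on simulated reads that were drawn independently with a single dispersion. They held no component shared between genes, so this check does not cover the within-group component of these libraries. Count models on the recovered reads were not run.

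The members, roles and lists were chosen with earlier results of these data known. Named are every member called, the largest rise and fall per role in KO and HA against WT, 10 fixed members (MKI67, TOP2A, PCNA, MCM2, CDK1, CCNB1, E2F1, CCND1, CCND2 and CCND3), the called genes of the lists (at most 5 per list and comparison) and CDKN1A, CDKN1B, CDK6 and MYC. MCM5, MCM6, MYBL2, FOXM1, UHRF1, RRM1, AURKA and other members called under an alternative were named after their values were seen. Replicate numbers come from the labels. Within WT and KO groups, same-numbered libraries deviated together (correlations 0.12 to 0.72), and HA and SA numbers did not pair. Alternatives are given below. Depth was 6504099 to 14750815 reads, and intervals cover the spread between libraries. A marker gene of other cells is not reported here.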

Additional observations from a re-analysis of the deposited data

Results flagged for a closer look

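In groups of 4 libraries, a gene was singled out where its lowest or highest library lay apart from the nearest other by more than Dixon's 95% critical share of the whole range of the group. This held for 48 of 400 sets of a member and a group, or 12%. About 1 in 20 independent sets would pass by chance, but these sets share libraries and are not independent. The share over all genes was not computed, so 12% cannot be read as particular to the members. For CCND2, near 0 in all groups, any library with reads is singled out where the others are at 0. The 43 sets of the members named in the text are given here, in normalized counts, and their causes were not tested.

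HA replicate 2 lay above the other libraries of its group for CCND2 (4.05). HA with LPS replicate 1 lay above the other libraries of its group for MCM7 (2654). HA with LPS replicate 2 lay above the other libraries of its group for CCND2 (2.24). HA with LPS replicate 3 lay below the other libraries of its group for UHRF1 (38.2). KO replicate 3 lay above the other libraries of its group for CCND2 (1.37), MCM4 (4204), MCM5 (3236), KIF11 (673), TPX2 (3049.5) and TOP2A (23926). KO replicate 3 lay below the other libraries of its group for RRM1 (1684). KO with LPS replicate 3 lay above the other libraries of its group for CCND3 (1520.2), CCNE1 (417) and MCM7 (2090.4). KO with LPS replicate 3 lay below the other libraries of its group for CCND1 (67.7).

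SA replicate 1 lay below the other libraries of its group for RRM2 (616) and CCNB1 (638). SA replicate 4 lay below the other libraries of its group for CCND2 (0). SA with LPS replicate 1 lay above the other libraries of its group for CCND3 (3487), E2F1 (1663), MYBL2 (4599), MCM4 (7108), MCM5 (6735), CDT1 (2042), TK1 (2111) and TPX2 (4143). SA with LPS replicate 1 lay below the other libraries of its group for MCM2 (115), RRM1 (1306), FEN1 (112), UHRF1 (76.3), CCNB1 (527) and AURKA (956). WT replicate 3 lay above the other libraries of its group for MYBL2 (4071), MCM4 (4123), TK1 (1683) and TPX2 (2686). WT replicate 3 lay below the other libraries of its group for MCM2 (599), RRM1 (3055), FEN1 (833) and CDK1 (795). WT with LPS replicate 3 lay above the other libraries of its group for MCM4 (4335) and TK1 (1482). WT with LPS replicate 3 lay below the other libraries of its group for RRM1 (3190.2).

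No member passed the test of the interaction between line and LPS (limma, adjusted p limit 0.01), and 0, 0 and 2 members had an unadjusted p below 0.05 in KO, HA and SA. The shares of all genes at that cut were 1.411%, 1.145% and 3.684%, against 0%, 0% and 4.08% of members.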

How the results depend on the processing

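CCND1 in inactive against active unstimulated lines kept its direction and its call under all other scalings, filters, blocks and weights tried, and lost the call only without HA replicate 2. The counts of members called moved as follows. With library weights they were 1 in KO, 1 in KO with LPS, 12 in HA, 2 in HA with LPS, 1 for LPS in SA, 4 for the mean LPS effect, 5 in inactive lines and 9 with LPS, and the shares of all genes were 8.66%, 8.96%, 21.2%, 9.37%, 1.46%, 4.51%, 13.8% and 17.1%. With the component as a covariate they were 2, 5, 2 and 3 in KO and HA in the same order, 1 for LPS in SA, 11 in inactive lines and 10 with LPS, with shares of all genes of 6.56%, 9.29%, 5.27%, 5.6%, 1.16%, 12.7% and 16.5%, against 22.4% and 20.4% of members in the inactive lines. Without the highest library of each group they were 1 in KO with LPS, 10 in HA, 1 in HA with LPS, 1 for the mean LPS effect, 3 in inactive lines and 2 with LPS. The deposited scale gave 2 in HA, voom 2 in inactive lines and TMM 1 in inactive lines with LPS. The replicate block gave 2 in inactive lines and 1 with LPS in the fit of all libraries, and in the fit of the groups compared 4 in KO with LPS and 2 in inactive lines, and it moved no other count of members. Leaving out 1 library at a time gave 0 (without HA replicate 2) to 2 (without KO replicate 3 or SA replicate 4) in inactive lines, and 0 to 1 with LPS (1 without KO replicate 2, SA replicate 2 or SA replicate 4). The log2 difference of MCM2 in KO against WT with LPS was -0.37 and ran from -0.78 without WT replicate 3 to 0.072 without KO replicate 3. The cause of these shifts was not tested. Voom, the 3 libraries a group and the covariate were chosen after seeing the data. The covariate was the component score with group means kept. The quasi-likelihood count test and the other count model planned were not run, although whole reads could be recovered. The 4 libraries a group limit MCM2 and FEN1 most, with SEs of 0.69 and 0.80 on the log2 scale.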
